A study of Bos taurus with 34 samples.

Results

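The miRNAs of the imprinted DLK1-DIO3 cluster were followed in the blood of dairy cows (Bos taurus). They were chosen by name alone, as every row for a listed set of miRNA numbers known to lie in the cluster, with any letter, copy number or arm. The rule found 51 of the 800 miRNA rows, for 38 of its 42 numbers. All 51 matched a gene in the RefSeq table of assembly ARS-UCD2.0, and all 51 lay on chromosome 21 between DLK1 and DIO3. They belonged to 48 of the 59 miRNA genes that the table lists in that interval. The build named by the submitters is UMD 3.1, so only gene names and gene order were taken from the table.

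The study asked whether cell-free miRNAs in blood can predict subclinical endometritis (SCE), in which the endometrium is inflamed but the cow looks well; status was set by cytology and biopsy. There were 17 cows, 6 healthy and 11 with SCE, each sampled at a time labelled day 25 and again at one labelled day 45. The design text gives these times as 21 and 44 days after calving and calls the fluid plasma, whereas the labels call it serum. Small RNA libraries were made and the deposited counts per mature miRNA were used, leaving 5 healthy libraries at day 25, 6 healthy libraries at day 45 and 11 SCE libraries on each day. The labels give each cow's status, number and sampling day, and no treatment or genotype. Healthy cow 3 had its day-45 library alone, because its day-25 file held the same counts as its day-45 file.

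The DLK1-DIO3 region is expressed from 1 parental copy at a time: the protein-coding genes DLK1, RTL1 and DIO3 from the paternal chromosome, and a string of non-coding transcripts, among them MEG3, from the maternal one. The miRNAs are cut from these maternal transcripts. Some lie antisense to RTL1, and a much larger group follows downstream and is often named after its first and near-last members, miR-379 and miR-410. In mammals the cluster is most active in the embryo, placenta, brain and mesenchymal tissues, and it is largely quiet in mature blood cells.

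Library totals ran from 678389 to 28872153 counts, and the libraries of SCE cow 10 were the shallowest (1343401 at day 25 and 678389 at day 45). The red blood cell miRNA miR-486 took between 3.95% and 81.1% of a library. The summed level of the 3 red blood cell markers (miR-451, miR-144 and miR-486) had a median of 792497 CPM (counts scaled to a common library size) in healthy cows at day 25, against 66375 in SCE cows; at day 45 the medians were 690250 and 318331. These levels were scaled with trimmed-mean (TMM) factors, which set libraries to a common level of most miRNAs and not to their totals, and the same scaling is meant by CPM below unless another is named. The liver marker miR-122, by contrast, had group medians between 3.11 and 13.4 CPM.

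**Figure D1:**
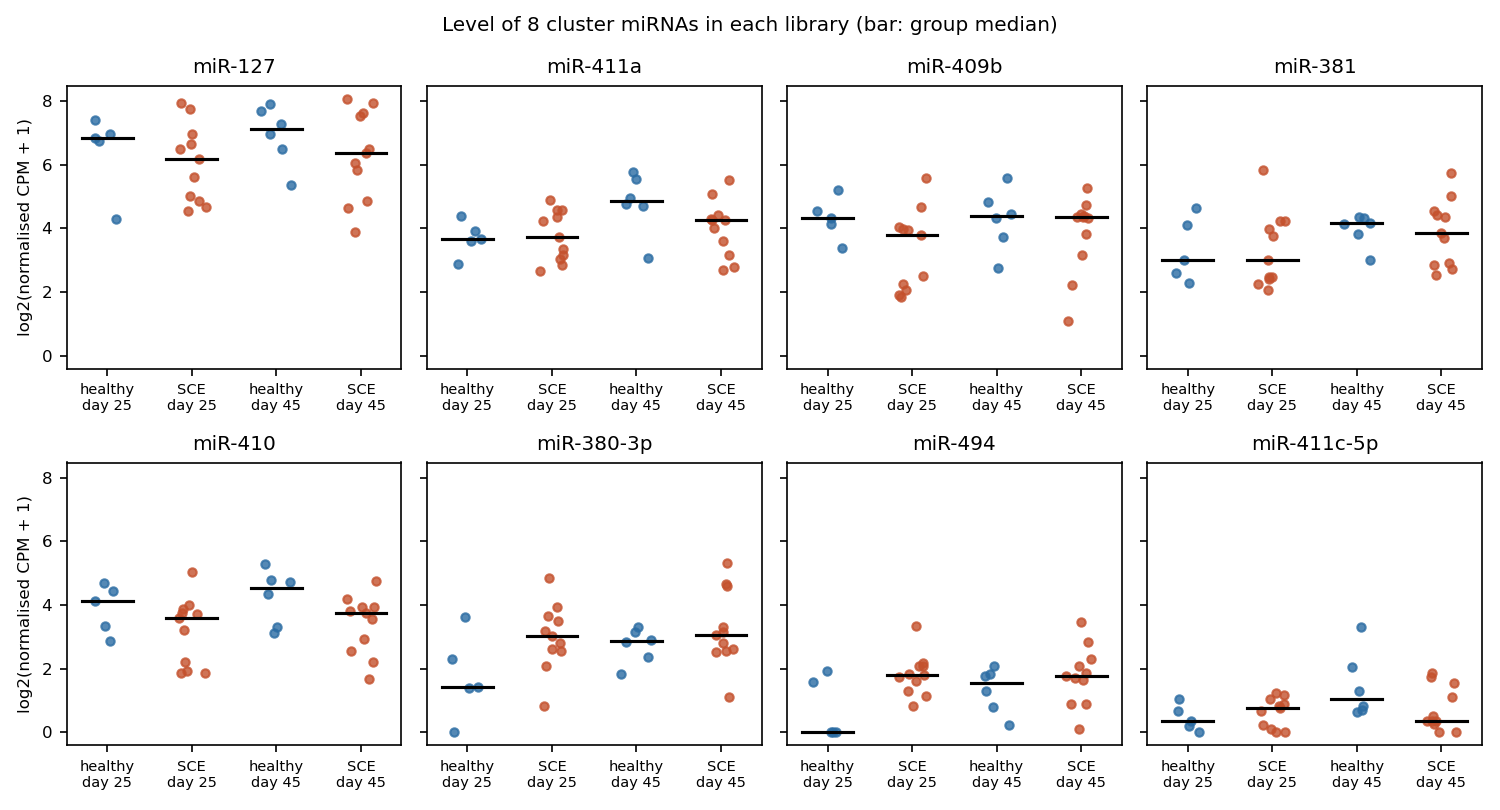
Each point is 1 library and each bar a group median; the vertical axis is log2 of the normalised CPM plus 1, for the 6 most abundant cluster miRNAs and for miR-494 and miR-411c-5p. The healthy (blue) and SCE (orange) libraries overlap in all 8 panels on both days, and miR-127 lies above the other panels.

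Cluster miRNAs were a small part of the circulating pool. Together they held 84293 counts, 0.0224% of all counts in the 33 libraries. A library held between 9 and 43 of the 51 rows, with a median of 28, and 6 rows had a count in every library. A total of 27 rows had fewer than 100 counts in all libraries together. One, miR-544a, had no count at all, which at 376907534 counts over all libraries allows at most 0.00796 CPM (3 counts, counting error only).

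One miRNA dominated. miR-127, which lies antisense to RTL1 and is known to guide cleavage of the RTL1 message, took 42141 counts, 50.0% of those on the cluster. It was the most abundant member in 33 of 33 libraries, with between 28.8% and 67.4% of the members' counts. The next were miR-411a, miR-409b, miR-381 and miR-410, and the first 5 together held 79.7% of the members' counts. The first 12 held 95.6%. By mean level over the libraries, miR-127 stood at 110 CPM, miR-411a at 18.5, miR-409b at 17.2, miR-381 at 14.9 and miR-410 at 13.5. miR-380-3p followed at 8.66 CPM, miR-154c at 6.62, miR-369-3p at 6.01, miR-665 at 4.19, miR-494 at 2.47, miR-136 at 2.31 and miR-432 at 1.87. Mature miRNAs are of nearly equal length, so these levels were compared without a length correction. From miR-411a to miR-410 the order was not firm, since neighbours differed by far less than their spread between libraries.

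Neighbouring genes differed widely in level. Inside the span of RTL1 lay the genes of miR-431, miR-433, miR-127, miR-432 and miR-136, in that order, and their totals were 44, 117, 42141, 721 and 986 counts. These 5 rows held 52.2% of the members' counts, nearly all of it miR-127. The 43 rows from the miR-379 gene to the miR-656 gene held 45.5%, with totals from 0 to 7525. miR-379 itself, the first of that stretch, had 30 counts, whereas miR-411a, the next gene along, had 7525. The remaining 3 rows, miR-493, miR-665 and miR-370, held 2.31%.

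Where both arms of a hairpin were counted, 1 arm prevailed. miR-369-3p had 2468 counts against 189 for miR-369-5p, and was the higher arm in 32 libraries with 1 tie. For miR-380 the 3p arm had 3904 counts and the 5p arm 1. For miR-411c it was the 5p arm that prevailed, with 368 counts against 29. Related copies were as uneven: miR-154c had 2649 counts, miR-154b 33 and miR-154a 4. miR-409b had 6048 and miR-409a 266, and miR-487b had 631 and miR-487a 80. The 4 miR-376 rows, a family known as a target of RNA editing, shared 402 counts, of which 258 were miR-376b. miR-134, studied for its role in neuronal dendrites, had 23 counts. The rows miR-299 and miR-299-2 had the same count in all 33 libraries (13 in all) and cannot be told apart. Reads of near-identical copies may have been split or shared between rows, and the handling of such reads was not stated in the labels.

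The first question the design poses is whether SCE cows differed from healthy cows. No cluster miRNA passed the test at day 25, at day 45 or with the days summed per cow. At day 25, 0 of the 13 members that passed the low-count filter were called by edgeR's quasi-likelihood test at an adjusted p of 0.05, beside 0.269% of all 372 rows tested. At an unadjusted p of 0.05 the count was also 0 of 13, beside 20.2% of all rows. Of the 13, 6 had a higher fitted level in SCE cows, beside 47.8% of all rows; their median log2 fold change was -0.04, against -0.05 over all rows. At day 45, 0 of 16 members and 0% of 382 rows were called, and 0 of 16 members passed the unadjusted threshold, beside 10.2% of rows. Here 5 of 16 members were higher in SCE, beside 57.1% of rows, with a median of -0.33 against 0.11.

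With the counts of both days summed per cow, so that each cow entered once, 0 of 18 members were called, beside 0.239% of 418 rows. An unadjusted p under 0.05 was reached by 3 of 18 members, miR-380-3p, miR-494 and miR-411c-5p, and by 16.5% of all rows, so the members' share was that of the background. A higher fitted level in SCE was found for 7 of 18, beside 53.1% of rows, and the median was -0.37 against 0.04. These lower medians belong to the members that passed the filter. Without a filter, 26 of 48 members were higher at day 45 (median 0.17, all rows 0.18) and 25 of 50 with days summed (median 0.01, all rows 0.02). DESeq2, which fits rare rows too, had 27 of 47 (median 0.18, all rows 0.20) and 27 of 50 (median 0.12, all rows 0.07). DESeq2 called 0 members in each of the 3 comparisons, beside 2.68%, 0.134% and 5.24% of the rows to which it gave an adjusted p. In the summed comparison it gave one to 9 members only. It gave none to miR-494, miR-411c-5p or miR-323b-3p, so these could not be called. An unadjusted DESeq2 p under 0.05 was reached by 2, 1 and 4 members, beside 14.7%, 6.68% and 13.9% of rows. Among the 4 was miR-323b-3p, with 127 counts in all, which did not pass edgeR's filter (-2.60, SE 1.03, unadjusted DESeq2 p 0.012). A member's standard error in the summed comparison was between 0.38 and 0.84 on the log2 scale.

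**Figure D2:**
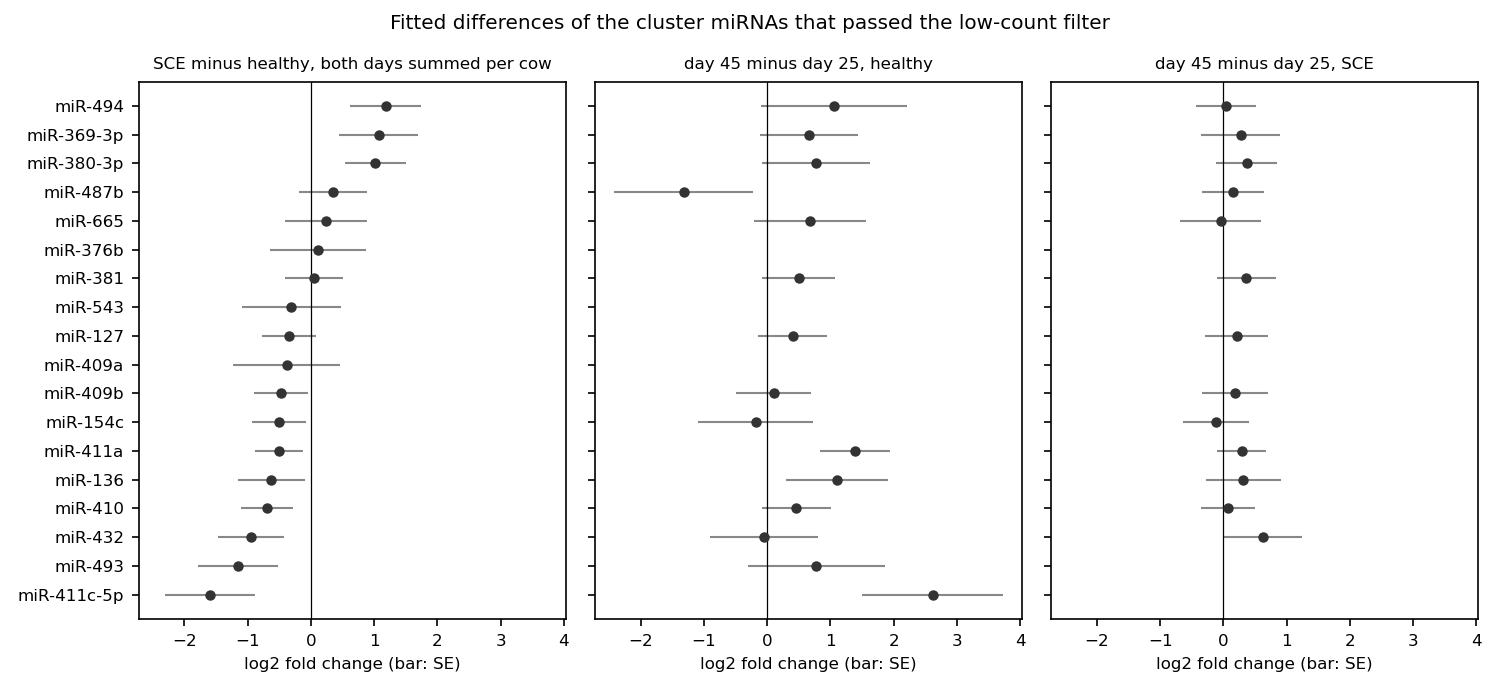
Points are fitted log2 fold changes and bars their standard errors (edgeR) for the members tested in the comparison of SCE with healthy cows, days summed per cow (left), and for the same members in the day comparisons where they were tested (middle, healthy; right, SCE). In the left panel miR-494, miR-369-3p and miR-380-3p lie above 1 and miR-411c-5p lies at -1.60; no point passed the adjusted threshold.

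These directions depended on how libraries were scaled. With library totals alone, the median of all rows in the summed comparison was 0.77 higher in SCE, and 374 of 418 rows were higher. Of the members, 15 of 18 were higher, with a median of 0.43. Measured against the median of all rows, the members' median was -0.33 under this scaling and -0.41 under TMM. At day 25 the same difference was -0.25 with totals and 0.02 with TMM, and at day 45 it was -0.09 and -0.44. With totals alone 2 members passed in the summed comparison, miR-380-3p (1.85, edgeR adjusted p 0.034) and miR-494 (1.99, adjusted p 0.041), where 15.3% of all rows also passed. As plain shares of a library, the members took 134.1 ± 83.1 CPM (SD, n = 5) in healthy cows and 211 ± 143 (n = 11) in SCE cows at day 25. The shares on day 45 were 179 ± 59.6 (n = 6) and 287 ± 264 (n = 11). With miR-486 left out of the totals, the 4 means were 320.2, 336.2, 373.2 and 410.8 CPM in the order healthy and SCE at day 25, then healthy and SCE at day 45. With a covariate for red blood cell RNA (log2 miR-486 over miR-23a), 12 of 13 members were higher in SCE at day 25 (median 0.69), beside 189 of 372 rows (median 0.07). At day 45 the same fit had 3 of 16 members higher (median -0.32), beside 213 of 382 rows (median 0.07). With days summed it had 9 of 18 members higher (median -0.07), beside 235 of 418 rows (median 0.08). In each of the 3 fits 0 members were called, beside 0.269%, 0% and 0% of rows. What part red blood cell RNA has in the levels was not tested beyond these fits.

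The spread between cows was wide. Summed over the members and both days, healthy cows stood at 232 ± 78.7 CPM (n = 6) and SCE cows at 193 ± 136 (n = 11). The SCE group held both ends: cow 9 was highest, at 504 CPM, and cow 16 lowest, at 61.5. By library, the members' sum ran from 64.4 to 265 CPM in healthy cows at day 25, and from 53.2 to 505 in SCE cows. At day 45 it ran from 84.5 to 397 in healthy cows and from 32.6 to 536 in SCE cows. The lowest library, SCE cow 8 at day 45, had counts for 9 members only, although its total was 14207289. SCE cows 9 and 11 had the highest shares of counts on the cluster, 558 and 365 CPM of the library total at day 25 and 829.1 and 686 at day 45. Without those 2 cows, a choice made after their levels were seen, 3 of 16 members in the summed comparison were higher in SCE and 13 lower. The members' median was -0.69, beside 208 of 401 rows higher and a median of 0.02 over all rows. Then 6 of 16 had an unadjusted p under 0.05 (edgeR), all lower in SCE, beside 77 of 401 rows, and 0 were called. Leaving out the SCE cows with the highest shares itself pulls the SCE level of the members down. These counts are therefore no test of status.

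**Figure D3:**
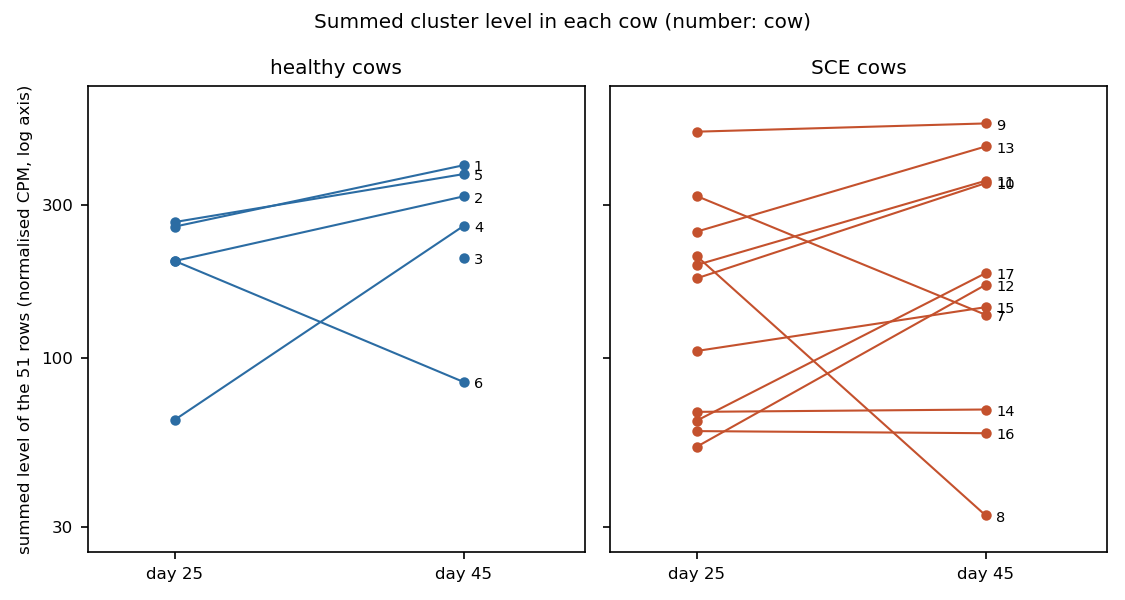
Lines join the 2 sampling days of 1 cow, labelled with the cow's number; the vertical axis is the summed normalised CPM of the 51 rows on a log scale. The sum was higher at day 45 than at day 25 in 4 of 5 healthy cows and in 8 of 11 SCE cows, and SCE cow 9 is highest on both days while SCE cow 8 has the lowest value of all at day 45.

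Among the individual members, miR-127 was measured with most counts. In healthy cows 1, 2, 4, 5 and 6 it stood at 167, 106, 18.6, 123 and 114 CPM at day 25. The SCE libraries of that day ran from 22.2 through a median of 72.0 to 247 CPM. At day 45 the lowest, median and highest were 39.8, 138 and 238 CPM in healthy cows and 13.8, 80.8 and 268 in SCE cows. The medians were lower in SCE on both days, but the ranges overlapped almost whole, and healthy cow 4 at day 25 stood far under the 4 other healthy libraries. The log2 fold change was -0.27 (SE 0.58) at day 25, -0.30 (SE 0.52) at day 45 and -0.35 (SE 0.43) with days summed, the last with an edgeR adjusted p of 0.70. With library totals alone it turned to 0.56, 0.62 and 0.50.

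miR-410, from the last part of the large downstream stretch, had a similar pattern. Healthy cows 1, 2, 4, 5 and 6 had 6.27, 16.4, 9.14, 25.0 and 20.7 CPM at day 25, and SCE libraries ran from 2.64 through a median of 11.0 to 31.6. At day 45 healthy libraries ran from 7.60 through 22.2 to 38.3 CPM, and SCE libraries from 2.18 through 12.4 to 26.2. SCE libraries were lower at the median on both days, and the groups overlapped. The log2 fold change with days summed was -0.70 (SE 0.40, edgeR adjusted p 0.35), and 0.062 with library totals alone.

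For miR-409b the healthy libraries of day 25, in the same order of cows, had 36.3, 22.3, 9.44, 19.2 and 16.8 CPM. SCE libraries ran from 2.60 through a median of 12.8 to 46.4 CPM. The healthy range on day 45 was 5.78 to 46.8 CPM with a median of 20.0, and the SCE range 1.13 to 37.8 with a median of 19.4. The groups overlapped on both days and shared nearly 1 median at day 45; the summed log2 fold change was -0.47 (SE 0.43, edgeR adjusted p 0.57).

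miR-381 had no steady direction. Its healthy values at day 25 were 5.04, 16.1, 3.83, 24.0 and 6.996 CPM, and SCE libraries ran from 3.22 through 7.07 to 56.3. At day 45 healthy libraries ran from 7.05 through 16.9 to 19.5 CPM and SCE libraries from 4.75 through 13.5 to 52.6. SCE cow 9 gave the highest value on both days. The summed log2 fold change was 0.05 (SE 0.46, edgeR adjusted p 0.96), and -0.36 without that cow.

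miR-380-3p and miR-494 had the lowest p-values among members with a higher fitted level in SCE. miR-380-3p was at 1.64, 3.90, 0, 11.3 and 1.68 CPM in healthy cows 1, 2, 4, 5 and 6 at day 25. SCE libraries of that day ran from 0.761 through a median of 7.16 to 28.0 CPM. At day 45 the healthy range was 2.53 to 8.96 CPM with a median of 6.25, and the SCE range 1.13 to 39.0 with a median of 7.21. At day 25, 3 of 5 healthy libraries lay under 2 CPM and 1 reached 11.3, so the groups still overlapped. Per cow the mean was 5.14 ± 2.01 CPM (SD, n = 6) in healthy and 10.4 ± 8.90 (n = 11) in SCE cows. The summed log2 fold change was 1.02 (SE 0.48), with an unadjusted p of 0.042 and an adjusted p of 0.29 (edgeR). Without SCE cow 9, which was highest on both days, it was 0.66. It was 1.22 (SE 0.77) at day 25, or 2.27 without healthy cow 5, and 1.01 (SE 0.58) at day 45.

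For miR-494 the healthy libraries of day 25 had 0, 0, 0, 2.79 and 1.96 CPM. In the 3 libraries at 0, a count of 0 allows up to 0.161, 0.193 and 0.386 CPM of the library total (3 counts, counting error only). SCE libraries ran from 0.761 through 2.48 to 9.08 CPM, and none was at 0. At day 45 the healthy libraries ran from 0.159 through 1.93 to 3.22 CPM and the SCE libraries from 0.0825 through 2.41 to 9.96. On that day both groups reached down to single counts. The summed log2 fold change was 1.19 (SE 0.56), with an unadjusted p of 0.045 and an adjusted p of 0.30 (edgeR), and 0.84 without SCE cow 9. At day 25 it was 1.57 (SE 0.88), or 2.91 without healthy cow 5.

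miR-411c-5p had the lowest edgeR p-value among tested members with a lower fitted level in SCE, and 1 healthy cow stood far above the rest. Its healthy values at day 25 were 0, 1.06, 0.147, 0.583 and 0.280 CPM, resting on 0, 12, 1, 14 and 1 counts. SCE libraries ran from 0 through 0.690 to 1.36 CPM. At day 45 the healthy range was 0.554 to 8.92 CPM with a median of 1.11, and the SCE range 0 to 2.60 with a median of 0.289. The highest of all was healthy cow 3, at 8.92 CPM from 56 counts; the next healthy library had 3.13. With days summed the log2 fold change was -1.60 (SE 0.71), with an unadjusted p of 0.033 and an adjusted p of 0.26 (edgeR). Without healthy cow 3 it was -0.27 and the adjusted p 0.83. That cow entered the sum with day 45 alone, the day on which the other healthy cows were higher.

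The remaining named members also overlapped between groups, and their edgeR adjusted p in the summed comparison was 0.35 or higher. miR-369-3p stood at 3.38 ± 2.60 CPM per cow in healthy (n = 6) and 7.21 ± 8.86 in SCE cows (n = 11), where cow 9 reached 32.4 (log2 fold change 1.07, SE 0.63, and 0.43 without that cow). miR-665, the gene nearest the DLK1 end after miR-493, stood at 3.37 ± 2.72 and 4.12 ± 4.62 CPM (0.24, SE 0.64). The other 3 were lower in SCE at the fitted level. miR-154c stood at 8.25 ± 3.42 CPM in healthy and 5.78 ± 3.86 in SCE cows (-0.51, SE 0.43). miR-136 stood at 3.20 ± 2.05 and 2.05 ± 1.74 CPM (-0.62, SE 0.53), and miR-432 at 2.57 ± 1.59 and 1.32 ± 0.943 CPM (-0.94, SE 0.52). Some libraries lay far under the rest of their group for several members at a time. Healthy cow 4 at day 25 was over 4 times under the next healthy library for 6 miRNAs (miR-127, miR-136, miR-154c, miR-380-3p, miR-432 and miR-665, with 1 count each for miR-136, miR-154c, miR-432 and miR-665). SCE cow 8 at day 45 was so for miR-136, miR-154c, miR-369-3p, miR-380-3p and miR-665.

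The second question is whether levels moved between the sampling days. No member passed the test in either status. In healthy cows 0 of 15 members and 0% of 345 rows were called by edgeR; 2 of 15 members had an unadjusted p under 0.05, miR-411a and miR-411c-5p, beside 2.9% of rows. A higher fitted level at day 45 was found for 12 of 15 members, beside 52.8% of rows, with a median log2 change of 0.66 against 0.01. The median was 0.29 without healthy cow 4, and 0.31 with DESeq2 over 43 members. In SCE cows 0 of 13 members and 0% of 346 rows were called, and 0 of 13 had an unadjusted p under 0.05, beside 4.05% of rows. There 11 of 13 members were higher at day 45, beside 41.6% of rows, with a median of 0.21 against -0.11. These fits did not pair the 2 days of a cow. With the cow as a block, 8 of 13 members were higher in SCE cows, beside 130 of 346 rows (medians 0.19 and -0.15). In healthy cows it was 12 of 15, beside 187 of 347 rows. The members share libraries and move together, so these counts of direction are not independent of each other. DESeq2 called 0 members and 0% of rows in both, with 2 members (3.45% of rows) and 0 members (3.36% of rows) at an unadjusted p under 0.05.

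miR-411a, the second most abundant member, had the lowest edgeR p-value of the members in the day comparisons; with DESeq2 miR-411c-5p had the lowest. Healthy cows 1, 2, 4, 5 and 6 had 11.7, 6.30, 11.2, 19.9 and 14.3 CPM at day 25. On day 45 healthy libraries ran from 7.37 through a median of 28.1 to 53.3 CPM, and the level was higher than at day 25 in 4 of 5 cows. SCE libraries ran from 5.39 through 12.2 to 28.6 CPM at day 25 and from 5.41 through 18.2 to 45.0 at day 45, higher in 8 of 11 cows. The day groups overlapped in both statuses. The log2 change was 1.40 (SE 0.55) in healthy cows, with an unadjusted p of 0.021 and an adjusted p of 0.9999 (edgeR), and 0.29 (SE 0.39) in SCE cows. Between statuses, miR-411a differed by 0.16 (SE 0.46) at day 25, by -0.74 (SE 0.47) at day 45 and by -0.51 (SE 0.38) with days summed.

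For miR-411c-5p the log2 change in healthy cows was 2.62 (SE 1.11), with an unadjusted p of 0.029 and an adjusted p of 0.9999 (edgeR), and 5 of 5 cows with both days were higher at day 45. Without healthy cow 3, which has no day-25 library, it was 1.46, and with the cow as a block, which also leaves that cow out, it was 1.74. In SCE cows 8 of 11 were higher at day 45 for this miRNA. The log2 change of miR-127 was 0.40 (SE 0.55) in healthy and 0.21 (SE 0.50) in SCE cows, and was higher at day 45 in 4 of 5 and 6 of 11 cows. With the cow as a block, 0 of 15 members had an unadjusted edgeR p under 0.05 in healthy cows, beside 0.576% of 347 rows. Without the block it was 2 of 15, beside 2.9% of rows.

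The difference between the day changes was tested with an interaction term. No member passed (0 of 18, beside 0% of 406 rows), none had an unadjusted p under 0.05, beside 1.72% of rows, and DESeq2 gave 0 members at either threshold, beside 0% and 3.54% of rows. The day change was larger in SCE for 4 of 18 members, beside 50.2% of rows. For miR-411a the difference was -0.99 (SE 0.66) and for miR-411c-5p -2.12 (SE 1.30), both with an edgeR adjusted p of 0.99. The members' median difference was -0.29, against 0.01 over all rows. It turned to 0.09 without healthy cow 4 and to 0.06 with DESeq2. There 26 of 50 members had the larger change in SCE, beside 478 of 791 rows. The day changes of the statuses were thus not shown to differ. The sign of the members' median depended on 1 cow and on the method.

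The levels of the same cow on the 2 days were then compared. Over the 16 cows with both days, the correlation of log2 levels was computed for 12 members, and 0 of 12 passed after adjustment (permutation test, 100000 permutations). The highest was miR-381, with a Pearson's r of 0.66, and the median over the 12 was 0.31. miR-127 had an r of 0.36.

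The members did move together from cow to cow. With the days summed, log2 levels of the 12 most abundant members were correlated over the 17 cows, giving 66 pairs. The r was positive in 65 of 66, with a median of 0.66, and 39 pairs passed after Benjamini-Hochberg adjustment over the 66 (two-sided permutation tests). All values of a cow share its library and scaling factor, and what these add to r was not tested. Pairs of other miRNAs at like levels were not correlated, so no background share stands beside the 39 pairs. Whether such joint movement is particular to the cluster was thus not tested. With 27 markers of other cell types, miR-127 had r values from -0.71 to 0.88, and 9 passed by permutation.

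**Figure D4:**
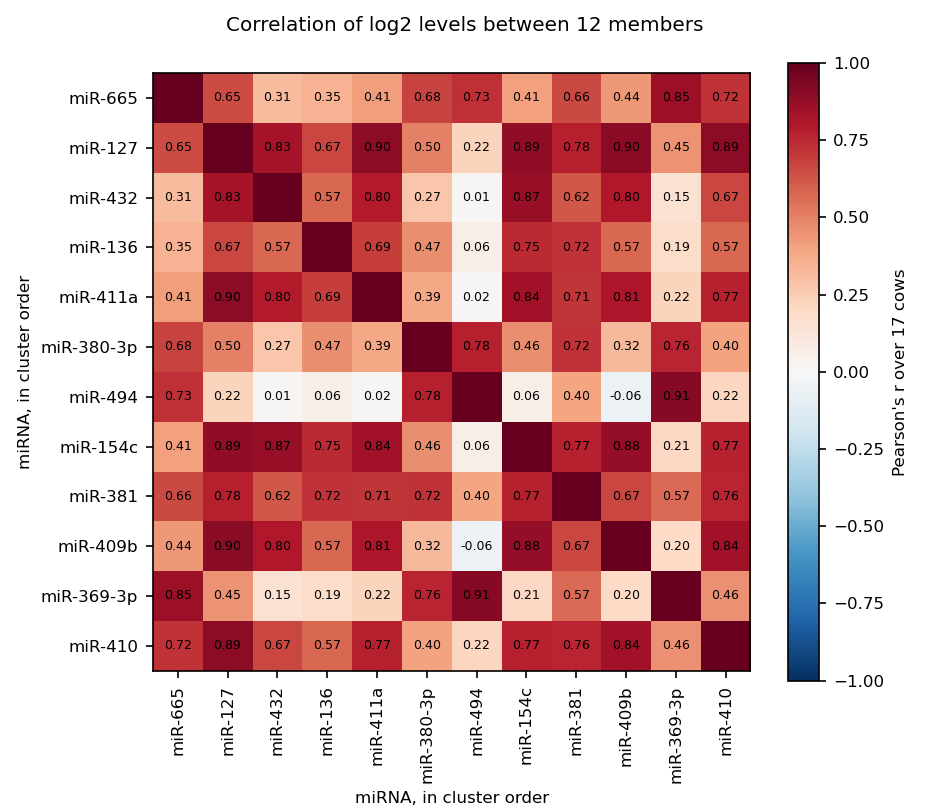
Each cell gives Pearson's r of log2 normalised CPM over 17 cows for a pair of the 12 most abundant members, ordered as their genes lie between DLK1 and DIO3. miR-127 has values of 0.83 to 0.90 with miR-432, miR-411a, miR-154c, miR-409b and miR-410, whereas miR-494 has values near 0 with miR-432, miR-136, miR-411a, miR-154c and miR-409b.

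miR-127 was most like miR-409b (Pearson's r 0.90, Spearman's rho 0.82), miR-411a (0.90 and 0.83), miR-410 (0.89 and 0.87), miR-154c (0.89 and 0.85) and miR-432 (0.83 and 0.74). Each of these 5 passed by permutation, with adjusted p of 0.00029 or lower for r. Without the 2 cows farthest from the median of miR-127 they were 0.86, 0.84, 0.84, 0.82 and 0.75. Within SCE cows (n = 11) these r values were 0.92, 0.91, 0.94, 0.94 and 0.85, and within healthy cows (n = 6) 0.75, 0.83, 0.63, 0.59 and 0.74.

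By Pearson's r over the 17 cows, miR-494, miR-369-3p, miR-380-3p and miR-665 followed one another more closely than they followed miR-127. For miR-665 this held by r over all cows only. Its rho was 0.75 with miR-127, against 0.60 with miR-494, 0.67 with miR-380-3p and 0.76 with miR-369-3p. Without the 2 farthest cows its r was 0.71 with miR-127, against 0.44, 0.52 and 0.70. miR-494 and miR-369-3p had an r of 0.91 and a rho of 0.85 (permutation, adjusted p 0.00011), and an r of 0.76 without the 2 farthest cows. miR-369-3p and miR-665 had an r of 0.85 and a rho of 0.76, and 0.70 without the 2 farthest cows. miR-380-3p had an r of 0.78 with miR-494 and 0.76 with miR-369-3p, and 0.61 and 0.53 without them. For miR-494 and miR-369-3p the 2 farthest were healthy cow 3, which was low for both, and SCE cow 9, which was high for both. miR-494 had an r of -0.06 with miR-409b, 0.02 with miR-411a and 0.22 with miR-127. Within SCE cows (n = 11) the r of miR-494 was 0.34 with miR-409b, 0.47 with miR-411a, 0.70 with miR-154c and 0.72 with miR-432. Within healthy cows (n = 6) the same 4 values were -0.31, -0.13, -0.51 and -0.40. Whether the 2 statuses differ in these r values was not tested. The grouping into these sets was made after the values were seen and is a description.

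Pairs far apart and pairs close together were found at both ends of the range. miR-127 and miR-409b lie 48 miRNA genes apart and had an r of 0.90. miR-409b and miR-369-3p lie 2 genes apart and had an r of 0.20. miR-494 and miR-154c lie 4 apart and had an r of 0.06, while miR-494 and miR-369-3p lie 35 apart.

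**Figure D5:**
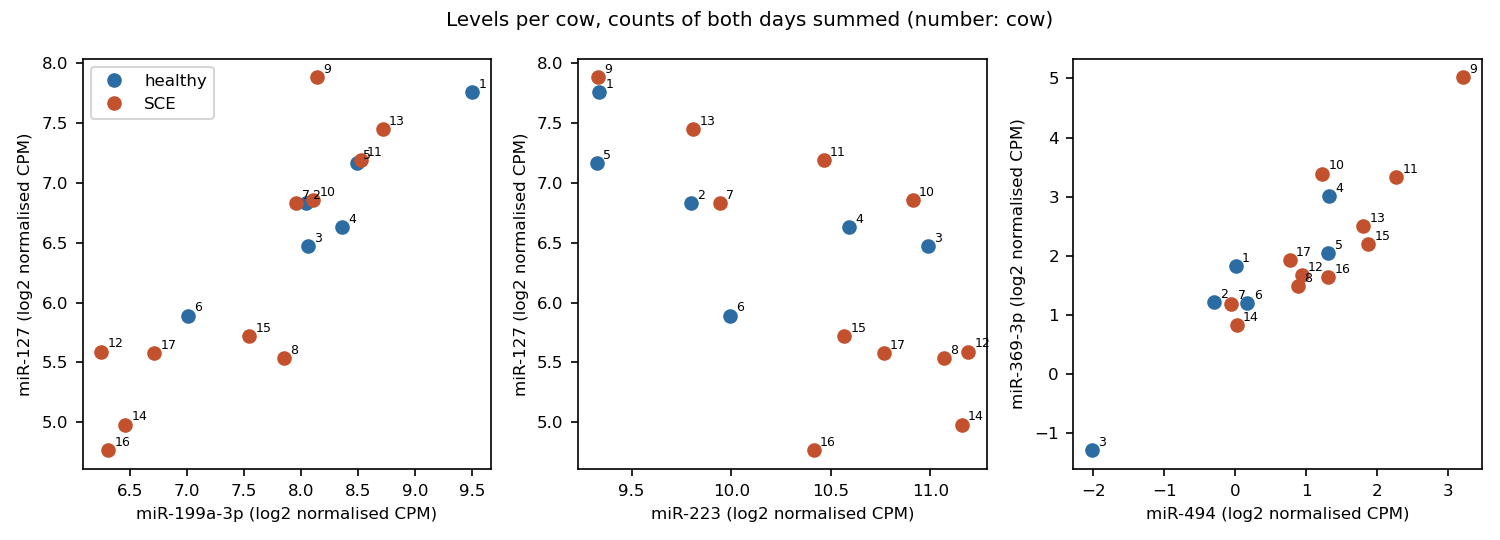
Each point is 1 cow, labelled with its number, with counts of both days summed; axes are log2 normalised CPM. miR-127 is higher where miR-199a-3p is higher (r 0.88) and lower where miR-223 is higher (r -0.71). miR-369-3p is higher where miR-494 is higher (r 0.91), and healthy cow 3 and SCE cow 9 are the 2 ends.

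Levels of miR-127 and miR-380-3p were also set against 27 marker miRNAs of other cell types, 54 pairs in all, adjusted together. miR-127 passed with 9 of 27 by permutation of Pearson's r. They were 4 of the 6 markers of smooth muscle and stroma, and 2 of 6 of epithelium, all positive; 2 of 3 of platelets with opposite signs (miR-126-3p 0.68, miR-223 -0.71); 1 of 3 of striated muscle, which was negative (miR-208b -0.59); and none of the red blood cell, lymphocyte, brain or liver markers. The highest were miR-199a-3p (r 0.88, rho 0.88), miR-199a-5p (0.87, 0.89) and miR-214 (0.86, 0.91), all from the smooth muscle and stroma list. By permutation the adjusted p of their r was 0.00036 or lower. Without the 2 farthest cows they were 0.82, 0.83 and 0.86. Within SCE cows the r values were 0.86, 0.91 and 0.93, and within healthy cows 0.96, 0.89 and 0.79. Whether these 3 miRNAs came from stroma or from platelets was not tested, and the platelet marker miR-126-3p passed too. The lowest was miR-223, a miRNA of myeloid cells and platelets, with an r of -0.71 (rho -0.69, permutation, adjusted p 0.012), and -0.73 and -0.61 within SCE and healthy cows. The 3 red blood cell markers had r values of 0.45 to 0.54 with miR-127 and did not pass. By permutation of Spearman's rho 9 of 27 also passed, but not the same 9. miR-208b and miR-143 did not pass (adjusted p of rho 0.087 and 0.070). The striated muscle marker miR-133a and the epithelial miR-429 did, both with a positive rho of 0.63 (adjusted p 0.037).

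The summed level of the 6 stroma markers had medians of 25700 CPM (healthy) and 10543 CPM (SCE) at day 25, and of 85564 and 24541 CPM at day 45. The healthy median was the higher on each day, as for miR-127. The 3 markers most like miR-127 were a small part of this sum. Per cow, miR-199a-3p reached at most 9.50 log2 CPM, miR-199a-5p 5.51 and miR-214 4.10. Of the same list, miR-145 (r 0.21) and miR-10b (r 0.42) did not pass with miR-127. The same order was found for the red blood cell list, for miR-122 (13.4 and 3.11 CPM, then 10.3 and 6.51) and for the epithelial list (865 and 796 CPM, then 1085 and 906). The SCE median was the higher on both days for the platelet list (933 and 1675 CPM, then 1034 and 1325). This was also so for the lymphocyte list (1740 and 2300 CPM, then 685.9 and 2926). The striated muscle list had that order too (24.5 and 37.4 CPM, then 27.0 and 34.9). For the brain list the SCE median was higher at day 25 and the healthy median at day 45. None of the 6 stroma markers was at 0 in all libraries of any group. In blood, fewer cells of a type and less RNA released per cell cannot be told apart, and the part of any of these cell types in the miR-127 level was not tested.

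miR-380-3p passed with 7 of 27 markers by permutation of Pearson's r. They were 4 of the 6 epithelial markers, 2 of 6 of smooth muscle and stroma and 1 of 3 of platelets. By permutation of Spearman's rho 4 of 27 passed. miR-200b, miR-145 and the platelet marker miR-126-3p did not (adjusted p of rho 0.087, 0.070 and 0.056). The highest r was with miR-200a, of the epithelial miR-200 family (r 0.85, rho 0.68, permutation, adjusted p 0.0019), followed by miR-141 (0.75) and miR-200b (0.72). Without the 2 farthest cows these were 0.57, 0.43 and 0.44, and within healthy cows they were 0.37, 0.33 and 0.17, against 0.92, 0.92 and 0.75 within SCE cows. With miR-199a-3p, the marker most like miR-127, the r of miR-380-3p was 0.37 and did not pass.

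Other miRNAs between DLK1 and DIO3 that the rule leaves out also had few counts. Of a further list of region miRNAs, miR-3956 had 43 counts, miR-1197 31 and miR-3957 12 in all libraries, and none passed the low-count filter. Outside that list and added after their counts were seen, miR-1247-5p had 292 counts, miR-3578 108 and miR-1247-3p 8. Of these only miR-1247-5p passed the filter, in 3 comparisons, with an edgeR adjusted p of 0.84 or higher. Among the 51 members, 19 passed it in at least 1 of the 6 comparisons and 13 in all 6. The other 32 members, with totals of 0 to 127 counts, were tested in none.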

How the data were processed

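Cell-free small RNA from cow blood was made into libraries with the TruSeq Small RNA kit, from 10 to 20 ng of small RNA and 13 or 16 PCR cycles, per the labels' protocols. The submitters' processing notes name bcl2fastq 2.17.1.14, DESeq2 and build UMD 3.1; for the aligner and the miRNA annotation no name was found in the labels. The deposited files hold raw counts per mature miRNA, 1 file per library. Counts carry no molecular identifiers, so limits from a count of 0 cover counting error only. Library totals ran from 678389 to 28872153.

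Samples were grouped by the labelled status and day. For healthy cow 3 the first file repeats the second and was not used, which leaves 33 libraries. Differences were tested with edgeR 4.0.16 (R 4.3.3): TMM factors, its default low-count filter, the quasi-likelihood F test, two-sided, with Benjamini-Hochberg adjustment over all rows tested and a threshold of 0.05. Standard errors given for edgeR were worked out from that test, as the absolute log2 fold change divided by the square root of F. The script was first tested on simulated counts. DESeq2 1.42.0 was an alternative. Correlations used log2 CPM (prior count 2) and 100000 permutations, and a marker entered with a mean of at least 1 CPM. The 2 farthest cows are those farthest from the median of 1 miRNA of the pair. Of 2 members this is the one nearer DLK1, and against a marker it is miR-127 or miR-380-3p. The cows left out can differ between pairs, and cows far out for the other miRNA alone stay in. Replicates are separate cows. The main day and interaction fits took both libraries of a cow as separate, without a term for the cow. The numbers pair the day-25 and day-45 libraries because they come from the same animal; over 16 cows the deviations from the group means had a median correlation of 0.27, over 0.1 in 11.

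Named with values are the 12 members of highest mean CPM and any member with an unadjusted p under 0.05 in 1 of the 6 comparisons; values by library are given for the first 6 and for the latter. Members and lists were chosen with earlier results of these data known. Other settings tried were size factors of DESeq2, no filter or a mean of at least 10 CPM, leaving out miR-486, a red blood cell covariate, leaving out each cow, and the cow as a replicate block. Library totals alone, and leaving out SCE cows 9 and 11 together, were added after seeing the data. Mature sequences were not used here.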

Additional observations from a re-analysis of the deposited data

Results flagged for a closer look

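Among 28 groups of healthy libraries tested for a value far from the others (the 13 named miRNAs and the sum of all 51 rows, on both days), 2 held one, where chance gives about 1 in 20. Both were healthy cow 3 at day 45. Its miR-136 level was 7.01 CPM (44 counts), the next healthy library had 3.67 and the group's median was 3.08. Its miR-411c-5p level was 8.92 CPM (56 counts), the next had 3.13 and the median was 1.11. In the same library miR-369-3p, miR-494 and miR-665 were the lowest of the group, at 0.318, 0.159 and 0.318 CPM from 2, 1 and 2 counts. The cow has no day-25 library to set beside these values, and their source was not tested. The 28 groups share libraries, and the sum holds the named miRNAs, so the groups are not independent of each other. SCE groups were not put to this test. Among SCE libraries at day 25, miR-369-3p stood at 26.2 CPM in cow 9 and next at 7.23 CPM in cow 8.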

How the results depend on the processing

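Under every alternative that was run, 0 members passed the edgeR or DESeq2 adjusted threshold in any of the 6 comparisons, except that 2 passed in the summed status comparison with library totals alone; there DESeq2 gave an adjusted p to 9 members only. Leaving out each cow moved the members' median between -0.34 and 0.38 at day 25, -0.57 and -0.12 at day 45, and -0.59 and -0.25 with days summed. For the day change it moved between 0.29 and 0.76 in healthy cows and 0.05 and 0.43 in SCE cows, and for the difference of the 2 between -0.65 and 0.09. Directions were less firm. With library totals alone the log2 fold change of miR-127 turned to 0.56 at day 25, 0.62 at day 45 and 0.50 with days summed, and that of miR-411a to 0.16 at day 45 and 0.34 with days summed. With days summed, miR-409b turned to 0.30, miR-410 to 0.062, miR-154c to 0.29 and miR-136 to 0.13. With the red blood cell covariate, miR-127 turned to 0.90 at day 25 and 0.11 with days summed, and with days summed miR-411a turned to 0.071, miR-409b to 0.13 and miR-381 to -0.22. miR-381 with days summed was also -0.13 without a filter, -0.031 with a mean of at least 10 CPM, -0.10 without miR-486 and -0.47 without SCE cows 9 and 11. Without these 2 cows, which had the highest shares on the cluster, miR-665 with days summed was -0.27 and miR-411a at day 25 was -0.054. Leaving out each cow moved miR-411a at day 25 between -0.021 and 0.38, miR-127 at day 25 between -0.54 and 0.055, and with days summed miR-381 between -0.36 and 0.20 and miR-665 between -0.27 and 0.81. The cause of these turns was not tested, beyond what each setting leaves out. As shares of counts without miR-486, the healthy means were 320 CPM at day 25 and 373 at day 45, against 134.1 and 179.2 CPM of all counts. With the replicate block (the cow) the median log2 change of the members was 0.87 in healthy cows, 0.19 in SCE cows and -0.68 for the difference, and it changed no adjusted call. In the summed comparison 3 of 18 members had an unadjusted edgeR p under 0.05, beside 16.5% of 418 rows. Leaving out each cow moved this number between 0 (without healthy cow 3) and 5 (without healthy cow 4). Without a filter it was 6 of 50 members (12%), under the 17.8% of all 794 rows. Depth limits the rarer members: 3 counts stand for 0.104 to 4.42 CPM of a library's total.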
